A study of Rattus norvegicus with 15 samples.

Results

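Liver transcript levels of rats fed either of a pair of soy isoflavones, genistein or daidzein, were compared with those of rats fed no isoflavone. All 15 arrays of the series entered the comparison: 5 genistein and 5 daidzein arrays, chosen by their titles and pooled with equal weight for each diet, against 5 control arrays. The animals were male Sprague-Dawley rats that were 4 weeks old at the start. They were kept on their assigned diet for 14 days after 5 days of adaptation, and both isoflavone diets held 2 g/kg of the compound. The diets of all 3 groups, control included, shared 200 g/kg of casein and 100 g/kg of palm oil, so the comparison is that of an isoflavone added to a purified, fat-rich diet. The titles describe the arrays of a diet as biological replicates, named here by diet and by the number in the title. With 5 arrays per diet, their number bounds how precise any value here can be.

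Genistein and daidzein are isoflavones of soy that bind estrogen receptors weakly, and genistein carries an additional hydroxyl group. Absorbed isoflavones reach the liver, which conjugates them with glucuronic acid or sulfate. The liver clears plant compounds with enzymes that oxidise or reduce them and with transferases that couple them to glutathione, glucuronic acid or sulfate. Many of those enzymes are under the control of the transcription factor Nrf2 or of the nuclear receptors CAR and PXR.

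Levels are given in log2 units on a scale with an arbitrary zero, rebuilt from the deposited standardized scores, and a change is the mean of the genistein and daidzein means minus the control mean. Of 31042 probe sets, the 18625 with a mean level of at least -0.30 were tested, which is the 40th percentile. Pearson correlations between arrays, over these probe sets, lay between 0.931 and 0.969. Among 8 array measures compared between the 10 isoflavone and the 5 control arrays, the lowest p was 0.027 (two-sided exact permutation test, 3003 arrangements), for the difference between the 3' and 5' probe sets of Gapdh, with a Benjamini-Hochberg adjusted p of 0.216. Markers of pancreas were high in daidzein 5, where Prss1, the trypsinogen gene, reached 7.59 against -1.53 to 0.47 in the other arrays. The count of probe sets that changed was also 3 without daidzein 5.

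In the mean of both isoflavone diets Gsta3 was higher and Dmxl2 lower, with each diet's mean on the same side of the control. Akr7a3 was higher in that mean through daidzein alone. Taken diet by diet against control, Gsta3 passed with daidzein only and Dmxl2 with genistein only. Gsta3 is an alpha-class glutathione S-transferase, Akr7a3 an aldo-keto reductase that reduces aflatoxin aldehydes, and Dmxl2 a protein of synaptic and endosomal vesicles. These were the only 3 of 18625 probe sets (0.0161%) with a limma adjusted p under 0.05, 2 higher (0.0107%) and 1 lower (0.00537%). In whole liver, fewer cells that express a gene and less RNA per cell cannot be told apart. Without adjustment 1864 probe sets had p under 0.05 (10.0%), of which 952 were higher (5.11%) and 912 lower (4.90%). The model with the 3 diets called 60 probe sets for genistein against control (0.322%), 3 for daidzein against control (0.0161%) and 21 between both isoflavones (0.113%). The pooled estimate has the lower standard error by design, as it averages 10 isoflavone arrays under a shared spread. Its median was 0.11 log2 units over 10745 genes against 0.12 for each diet.

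**Figure D1:**
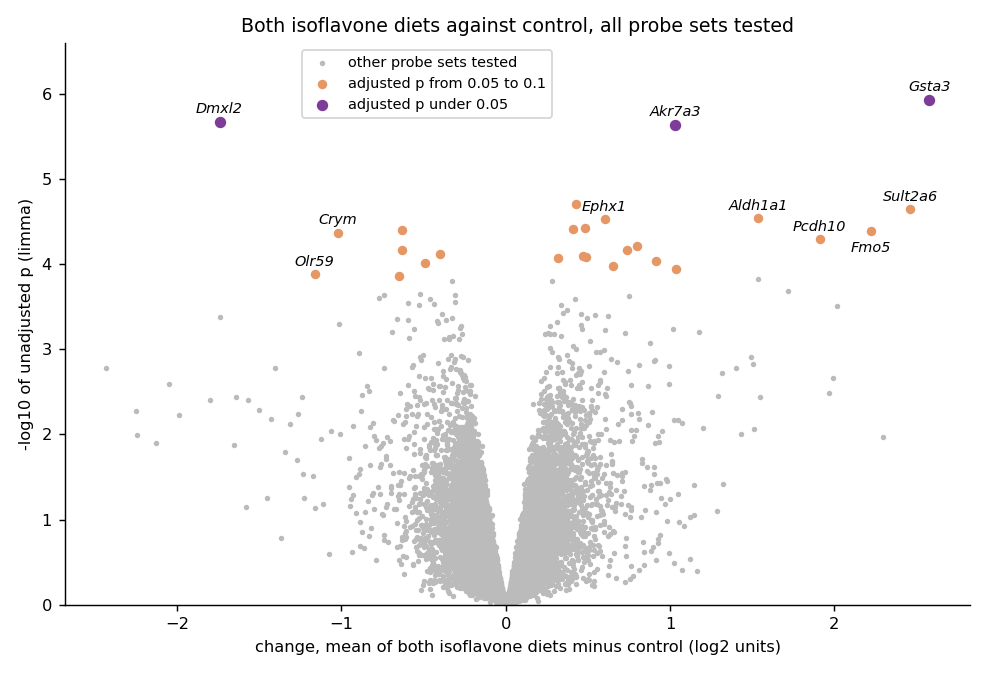
Change of each of the 18625 probe sets tested (x axis, mean of both isoflavone diets minus control, log2 units) against the -log10 of its unadjusted limma p (y axis). Purple points are the 3 with adjusted p under 0.05, orange points the 23 from 0.05 to 0.1, of which 16 were higher and 7 lower, and grey points the rest.

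Gsta3 (Entrez gene 494500) was at -1.13, -0.06, -1.55, -0.95 and -0.25 in control 1 to 5. In genistein 1 to 5 it was at 0.64, 1.72, 1.87, -0.25 and 0.67. In daidzein 1 to 5 it was at 3.12, 2.30, 2.33, 2.78 and 2.71. All isoflavone arrays except genistein 4 lay above the highest control, and the daidzein arrays lay above every genistein array. The pooled change was 2.58 ± 0.33 (SE, n = 10 against 5, 95% interval 1.88 to 3.27, 5.97-fold, limma adjusted p = 0.0143). Genistein alone differed from control by 1.72 (limma adjusted p = 0.0745) and daidzein by 3.44 (limma adjusted p = 0.00186). The change with genistein was smaller than with daidzein by 1.72. The interval of the difference, genistein minus daidzein, ran from -2.52 to -0.92 (limma adjusted p = 0.0879). The control mean of -0.79 lay below the level required for testing, so Gsta3 entered the test only through the isoflavone arrays. With no filter its limma adjusted p was 0.043. The fold therefore depends on the background subtracted before deposit, and with 16 added to the rebuilt intensities the change was 1.99 (limma adjusted p = 0.00815). Alpha-class transferases have near-identical copies, and whether the probe set reads Gsta3 alone is uncertain.

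Dmxl2 (Entrez gene 315676) was at 2.34, 1.59, 2.44, 1.95 and 1.15 in control 1 to 5. It was at -0.91, -0.50, -0.59, 0.16 and 0.35 in genistein 1 to 5 and at 1.01, 0.51, 0.44, 0.44 and 0.62 in daidzein 1 to 5. All 10 isoflavone arrays lay below all 5 controls, with a gap of 0.14 between the groups. The level fell by 1.74 on the log2 scale (SE 0.23, n = 10 against 5, 95% interval -2.23 to -1.25, 3.34-fold lower, limma adjusted p = 0.0143). The change was -2.19 with genistein (limma adjusted p = 0.00891) and -1.29 with daidzein (limma adjusted p = 0.209). The interval of the difference between them ran from -1.47 to -0.33 (limma adjusted p = 0.231). The genistein mean of -0.30 lay at the level required for testing, so the fold depends on the background here too, and with 16 added to the intensities the change was -1.42.

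Akr7a3 (Entrez gene 26760) was at 5.96, 5.71, 5.38, 5.68 and 5.62 in daidzein 1 to 5. Control 1 to 5 stood at 3.53, 3.88, 3.31, 3.52 and 3.41, and genistein 1 to 5 at 3.17, 3.37, 3.40, 3.30 and 4.05. The daidzein arrays lay above all others, while 4 genistein arrays lay inside or below the control range and genistein 5 just above it. The pooled change of 1.03 ± 0.14 (SE, n = 10 against 5, 95% interval 0.74 to 1.33, limma adjusted p = 0.0143) was therefore the mean of 2.14 with daidzein and -0.08 with genistein. Genistein minus daidzein was -2.21 (95% interval -2.55 to -1.87, limma adjusted p = 1.52e-05). Although the pooled test passed, the Akr7a3 change was not shared by the diets. Akr7a2, another member of the family, had a pooled change of -0.05 ± 0.13 (SE, limma adjusted p = 0.931).

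These 3 calls depended on the control arrays and on the model. All 3 were lost without control 1 (lowest limma adjusted p 0.0788), control 3 (0.0913) or control 4 (0.0598), and kept when any of the other 12 arrays was left out. They were also lost in a model of 10 isoflavone arrays against 5 controls with no term for the diet, where limma gave Dmxl2 an adjusted p of 0.112, Gsta3 0.133 and Akr7a3 0.549. The replicate block also ended all 3 (limma adjusted p from 0.134 to 0.136), and median centring ended the call of Akr7a3 (limma adjusted p = 0.0770). Over all 26 alternatives the change of Gsta3 ranged from 1.99 to 2.76, that of Dmxl2 from -1.92 to -1.42 and that of Akr7a3 from 0.96 to 1.11.

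**Figure D2:**
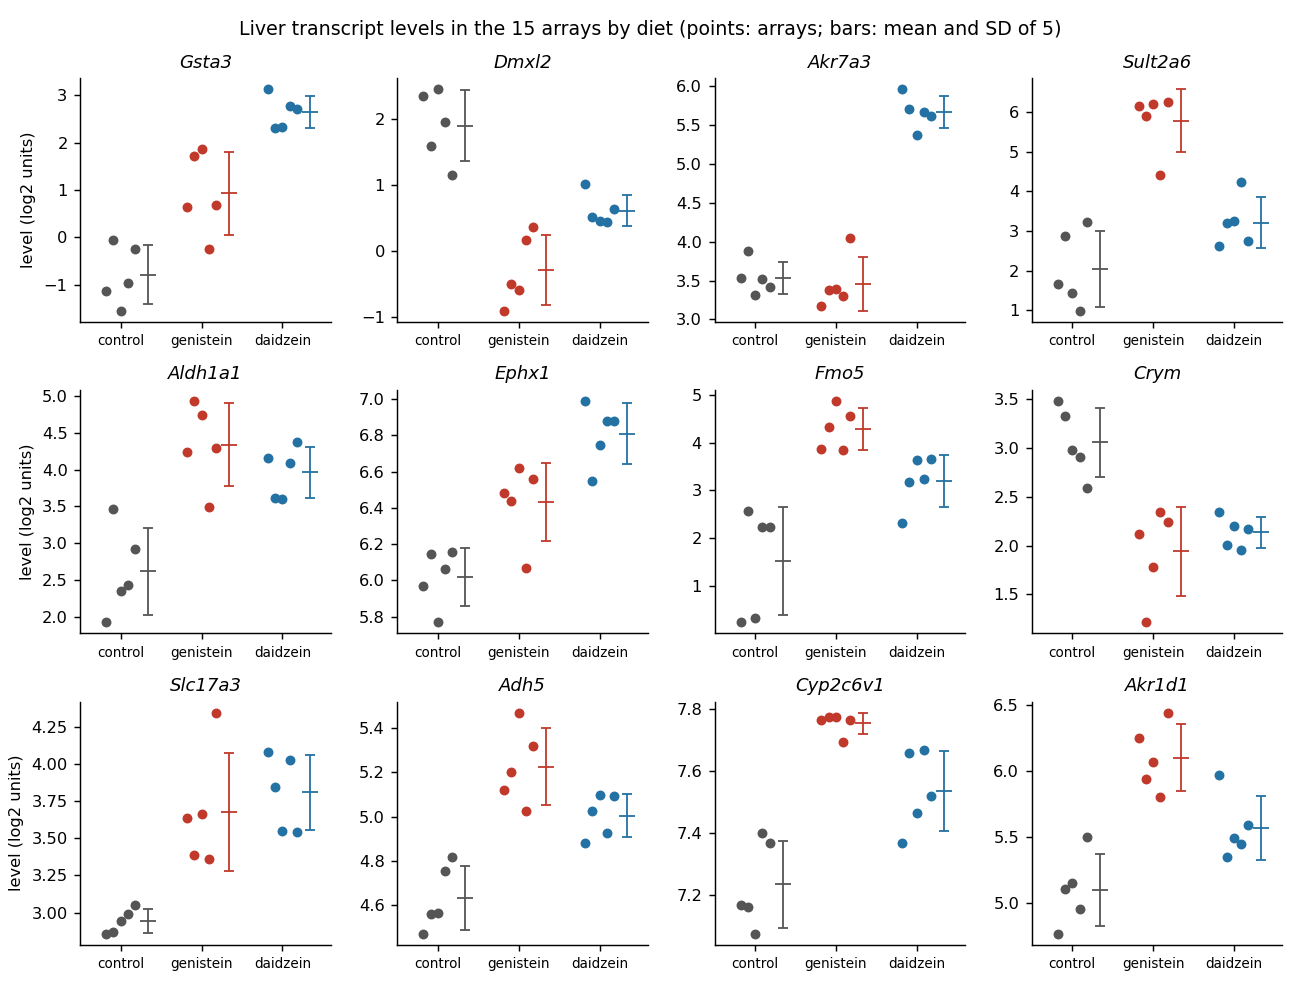
Level of 12 genes in each of the 15 arrays (y axis, log2 units, arbitrary zero) by diet, with points for arrays and bars for the mean and SD of 5. Dmxl2, Crym, Aldh1a1, Slc17a3 and Adh5 separate all 10 isoflavone arrays from the 5 controls, and Akr7a3 is high in daidzein arrays only.

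Promoter sequences of the 3 called genes are shown because Gsta3 and Akr7a3 stand on the Nrf2 list. Nrf2 binds the antioxidant response element, whose core was searched as TGACNNNGC on both strands in the 250 bases before each annotated start (RefSeq, build GRCr8). Capitals mark the core. The windows are chr9:31154739-31154988 on the + strand for Gsta3, chr5:156876471-156876720 on the + strand for Akr7a3 and chr8:63781117-63781366 on the - strand for Dmxl2.
Gsta3: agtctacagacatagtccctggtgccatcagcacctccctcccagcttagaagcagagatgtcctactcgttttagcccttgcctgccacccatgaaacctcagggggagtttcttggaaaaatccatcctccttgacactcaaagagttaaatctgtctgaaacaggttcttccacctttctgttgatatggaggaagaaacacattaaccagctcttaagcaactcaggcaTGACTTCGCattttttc
Akr7a3: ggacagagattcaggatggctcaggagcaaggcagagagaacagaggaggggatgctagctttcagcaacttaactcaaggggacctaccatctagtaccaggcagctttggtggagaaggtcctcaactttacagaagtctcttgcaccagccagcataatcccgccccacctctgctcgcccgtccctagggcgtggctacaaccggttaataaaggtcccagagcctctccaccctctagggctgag
Dmxl2: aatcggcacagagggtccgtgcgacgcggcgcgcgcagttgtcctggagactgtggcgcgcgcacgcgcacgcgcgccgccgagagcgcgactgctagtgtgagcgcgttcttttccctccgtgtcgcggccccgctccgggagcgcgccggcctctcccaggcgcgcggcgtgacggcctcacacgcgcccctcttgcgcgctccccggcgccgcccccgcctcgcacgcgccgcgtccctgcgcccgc
The Gsta3 window held 1 core, TGACTTCGC, from -17 to -9 before the start, and the others held none. A core stood in 10.2% of 27457 windows of all genes and in 12.7% of the 8945 windows of tested genes. Of the 20 measured Nrf2 list genes with a window, 5 had a core: Gsta3, Gstp1, Gclm, Ugdh and Me1, named for the core alone. Their pooled changes were 2.58, 0.33, 0.19, 0.08 and 0.05, and Nqo1 and Ephx1 had none within these 250 bases. A match describes the letters of the window only.

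A further 23 probe sets had a limma adjusted p between 0.05 and 0.1, so that 26 lay under 0.1 (0.140%). They did not pass and were looked at after their values were seen. Of the 23, 16 were higher and 7 lower, their median absolute change was 0.65, and 20 of them carried a gene symbol. The change was larger in size with genistein in 17 and with daidzein in 6. Of the 23, 13 differed between the diets at an unadjusted limma p under 0.05 and 0 after adjustment. Over all 18625 probe sets tested, 1746 differed between the diets without adjustment and 21 (0.113%) after it. Among the 1864 with an unadjusted pooled limma p under 0.05, genistein had the larger change in 1129 and daidzein in 735. This split, like that of the 23, was not counted over all 18625 probe sets tested. Of those 1864, 375 differed between the diets without adjustment. Values of both diets share the same controls.

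Among the higher 16 were Aldh1a1, Fmo5, Ephx1, Cyp2c6v1 and Adh5. Aldh1a1, a retinal dehydrogenase, was at 1.92 to 3.46 in the controls, 3.48 to 4.93 with genistein and 3.60 to 4.37 with daidzein. The groups did not overlap, and the pooled difference was 1.54 ± 0.26 (SE, limma adjusted p = 0.0665), 1.72 with genistein and 1.35 with daidzein. Fmo5, a flavin monooxygenase, was at 0.25, 2.58, 0.34, 2.23 and 2.23 in control 1 to 5. Its isoflavone arrays lay between 2.32 and 4.87, and only daidzein 1 lay inside the control range (pooled difference 2.22 ± 0.38 SE, limma adjusted p = 0.0665). Ephx1, microsomal epoxide hydrolase, lay at 5.77 to 6.16 in the controls and at 6.07 to 6.99 in the isoflavone arrays, of which 9 exceeded every control. Its difference was 0.41 with genistein and 0.79 with daidzein. Cyp2c6v1, a cytochrome P450 of drug metabolism, was at 7.07 to 7.40 in the controls, with 9 of 10 isoflavone arrays above that range (pooled difference 0.41). Adh5, the glutathione-dependent formaldehyde dehydrogenase, was at 4.47 to 4.82 in the controls and at 4.88 to 5.47 in the isoflavone arrays, with no overlap (pooled difference 0.48).

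Sult2a6, Akr1d1, Cyp2a1, Ugt2b34l1 and Ugt2b10 had larger differences with genistein than with daidzein, none of them different between the diets after adjustment. Sult2a6, which sulfates hydroxysteroids and bile acids, was at 1.67, 2.87, 1.44, 0.99 and 3.23 in control 1 to 5. Genistein arrays lay between 4.41 and 6.25 and daidzein arrays between 2.62 and 4.25, so that all genistein arrays but only 2 daidzein arrays exceeded the controls. The pooled difference of 2.46 ± 0.40 (SE, limma adjusted p = 0.0665) was the mean of 3.75 and 1.17, with an interval of the difference between diets from 1.58 to 3.57. Akr1d1, the 5-beta reductase of bile acid formation, differed from control by 1.00 with genistein and 0.47 with daidzein. Cyp2a1, a steroid hydroxylase, differed by 1.63 and 0.45, and the glucuronosyltransferases Ugt2b34l1 and Ugt2b10 by 1.36 and 0.47 and by 0.74 and 0.23. Genistein arrays exceeded all controls for each of these 4 genes, and daidzein arrays overlapped the controls.

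Slc17a3, Rgs6 and Col20a1 had nearly equal differences in both diets. Slc17a3, an anion transporter of the phosphate transporter family, was at 2.86, 2.87, 2.94, 2.99 and 3.05 in control 1 to 5. It was at 3.64, 3.38, 3.67, 3.36 and 4.34 in genistein 1 to 5 and at 4.08, 3.85, 3.55, 4.02 and 3.54 in daidzein 1 to 5. The groups were separated by 0.31, the widest gap of any probe set tested, and the pooled difference was 0.80 ± 0.14 (SE, limma adjusted p = 0.0793). The interval of the difference between diets ran from -0.49 to 0.23. Rgs6, a regulator of G protein signalling, differed from control by 0.47 with each diet, and the interval between them ran from -0.21 to 0.22. Its control arrays lay at -0.65 to -0.21 and its isoflavone arrays at -0.05 to 0.35, and with 16 added to the intensities the pooled difference was 0.32. Col20a1, a collagen chain, differed by 0.65 with genistein and 0.66 with daidzein, with 9 of 10 isoflavone arrays above the controls. The control means of Rgs6 (-0.38) and Col20a1 (-0.42) lay below the level required for testing, so both entered the test only through the isoflavone arrays. With 16 added the Col20a1 difference was 0.46. Pcdh10, a protocadherin, had a difference of 2.17 with genistein and 1.66 with daidzein, and daidzein 1 (-1.26) lay inside the control range. Its control mean of -1.54 was also below that level, so it too entered the test only through the isoflavone arrays. With 16 added to the intensities its pooled difference was 1.17.

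On the lower side, Crym had the widest gap between isoflavone and control arrays among those that did not pass. The gene encodes mu-crystallin, a thyroid hormone-binding protein of the cytosol, and was at 3.48, 3.33, 2.98, 2.91 and 2.59 in control 1 to 5. Genistein arrays lay at 1.21 to 2.35 and daidzein arrays at 1.95 to 2.35, all below the controls. The pooled difference was -1.02 ± 0.18 (SE, limma adjusted p = 0.0665), -1.12 with genistein and -0.92 with daidzein. Olr59, an olfactory receptor gene, differed by -1.61 and -0.71, Dtx4, a ubiquitin ligase of the Deltex family, by -0.69 and -0.57, and Smlr1, which encodes a small leucine-rich protein, by -0.30 and -0.50. For each of these 3, all isoflavone arrays lay below all controls. Probe sets of Sri (-0.63) and Sorl1 (-0.65) were also on this side. They are not those that represent the genes, whose changes are not given here. The genistein mean of the Sorl1 probe set (-0.48) lay below the level required for testing.

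**Figure D3:**
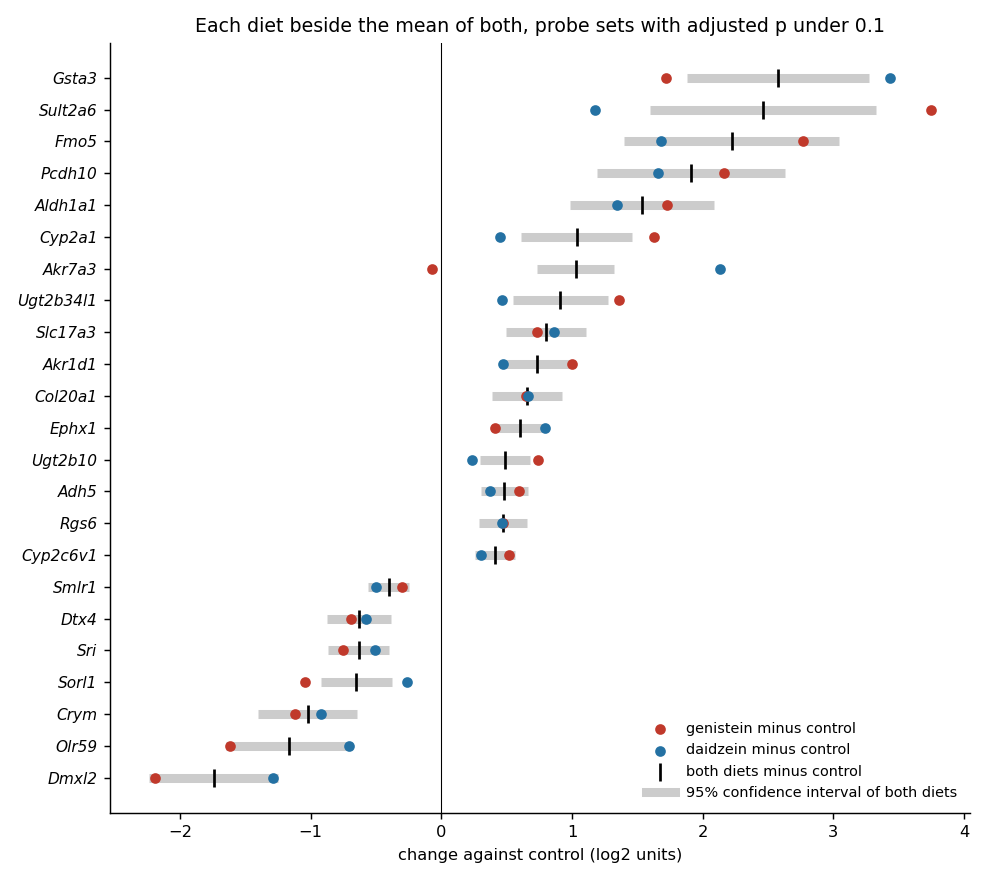
Change against control (x axis, log2 units) of the 23 probe sets with a symbol and a limma adjusted p under 0.1, with genistein in red, daidzein in blue, the mean of both as a black tick and its 95% confidence interval in grey. Akr7a3 is the gene with the diets on opposite sides of 0, and Rgs6, Col20a1 and Slc17a3 have the diets close together.

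In 56 of 18625 probe sets (0.301%) the 10 isoflavone arrays lay wholly apart from the 5 controls, 25 higher (0.134%) and 31 lower (0.166%). By this description the diets necessarily moved the same way. The widest gaps after Slc17a3 were those of Crym (0.24), Olr59 (0.23), Rgs6 (0.16), Dmxl2 (0.14) and Smlr1 (0.13). There were smaller changes without overlap: Asgr1, a subunit of the asialoglycoprotein receptor of hepatocytes, differed by -0.27 and Nsdhl, a sterol enzyme, by -0.20. Gldc and Gcsh, components of the glycine cleavage system, differed by -0.42 and -0.23, and Hao1, the glycolate oxidase, by -0.31. Acsl4, an acyl-CoA synthetase, differed by 0.61, 0.81 with genistein and 0.40 with daidzein. Genes in these sentences other than Dmxl2 did not pass the adjusted test, and Gldc, Gcsh and Hao1 were chosen after their values were seen.

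Gene lists were described by counts and medians, beside a median change of -0.00 over all 10745 genes with a tested probe set, of which 48.9% were above 0. Among all genes, 4.96% were higher and 5.39% lower with an unadjusted limma p under 0.05, and 3 passed after adjustment (0.0279%). Of the 22 measured genes of the Nrf2 list, 2 passed (Gsta3 and Akr7a3, both higher), 7 were higher and 1 lower without adjustment, and the median was 0.05. The median was -0.06 with genistein and 0.22 with daidzein. The array medians, set against the control mean, were -0.08 to 0.08 in controls, -0.09 to 0.05 with genistein and 0.14 to 0.38 with daidzein. Only the daidzein arrays thus lay apart from the controls on this list. Nqo1, a quinone reductase, was at 0.73 to 3.10 in controls, 2.71 to 3.50 with genistein and 3.40 to 4.89 with daidzein (pooled difference 1.32 ± 0.35 SE, limma adjusted p = 0.250). The other members with an unadjusted p under 0.05 were Osgin1 (0.78), Ephx1 (0.60), Ces2c (0.40) and Gstp1 (0.33) on the higher side and Hmox1, heme oxygenase (-0.28), on the lower side, and the remaining 14 lay between -0.13 and 0.19. Nfe2l2, the gene of Nrf2 itself, had a difference of -0.06 ± 0.20 (SE, limma adjusted p = 0.956).

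Of 19 glutathione S-transferases, 1 passed (Gsta3), 7 were higher and 1 lower without adjustment, and the median was 0.16, 0.09 with genistein and 0.24 with daidzein. Gsta1 differed by 0.32 and Gstp1, the pi-class enzyme, by 0.33. Of 18 CAR and PXR targets none passed, 6 were higher and 2 lower without adjustment, and the median was 0.25, 0.28 with genistein and 0.16 with daidzein. Aldh1a1 (1.54) and Cyp2a1 (1.04) stood highest in it and Cyp3a2 (-0.91), a male-predominant cytochrome P450 named for that place only, lowest. Nr1i3, the gene of CAR, had a difference of 0.53 ± 0.23 (SE, limma adjusted p = 0.473). Of 16 glucuronosyltransferases, sulfotransferases and genes of their cofactors none passed, 5 were higher and 1 lower without adjustment, and the median was 0.11. The array medians of this list were -0.03 to 0.03 in controls, 0.02 to 0.27 with genistein and 0.04 to 0.29 with daidzein, so every isoflavone array except genistein 4 lay above the controls. Ugt2b15, which conjugates steroids and phenols, differed by 0.34 with genistein and 0.30 with daidzein. The 6 measured Ah receptor targets had a median of -0.01, with 1 higher without adjustment (Nqo1, which is on both lists).

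**Figure D4:**
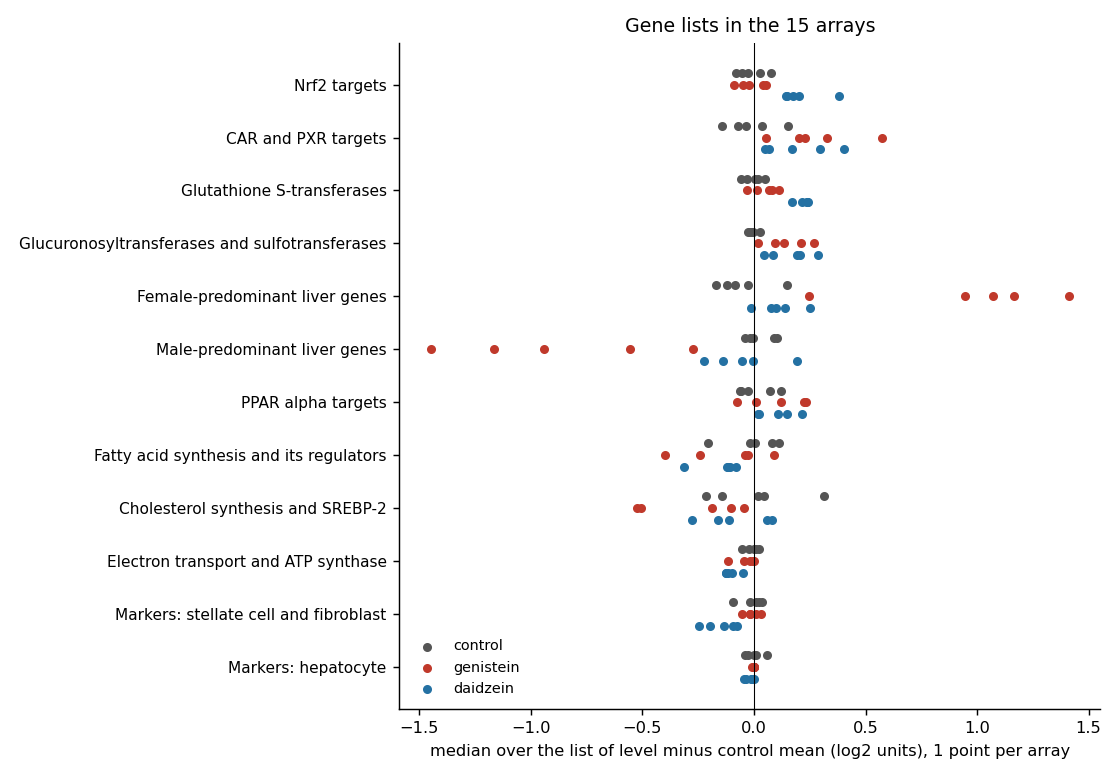
Median over each of 12 gene lists of the level minus the control mean (x axis, log2 units), with 1 point per array and the control, genistein and daidzein arrays in grey, red and blue. Nrf2 targets are higher in daidzein arrays, and the sex-biased lists move most in genistein arrays. The hepatocyte markers lie near 0 in all 15 arrays.

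The sex-biased lists had the largest pooled medians, and these were far from 0 with genistein and near 0 with daidzein, a difference that was not tested for the lists. Of 19 male-predominant genes none passed, 11 were lower and 2 higher without adjustment, and the pooled median was -0.40, -0.88 with genistein and -0.08 with daidzein. Of 18 female-predominant genes none passed, 9 were higher and 2 lower without adjustment, and the median was 0.71, 0.82 with genistein and -0.02 with daidzein. Array medians of the male list were -1.45 to -0.27 with genistein, -0.22 to 0.19 with daidzein and -0.04 to 0.10 in controls. Those of the female list were 0.246 to 1.41 with genistein, -0.011 to 0.251 with daidzein and -0.17 to 0.15 in controls. Genistein 4 lay nearest to 0 among genistein arrays on both lists, and on the female list daidzein 4 (0.251) exceeded it. Dhrs7l1, a dehydrogenase of the male list, had a pooled difference of -2.43 that was -4.74 with genistein and -0.13 with daidzein, and the diets differed (limma adjusted p = 0.0252). Egfr, the epidermal growth factor receptor, was at 5.29 to 5.78 in controls, 4.22 to 5.00 with genistein and 5.01 to 5.68 with daidzein (pooled difference -0.59, limma adjusted p = 0.153). Prlr, the prolactin receptor of the female list, differed by 2.48 with genistein and 0.53 with daidzein. Some members of the female list were alike in both diets, such as Adh4, an alcohol dehydrogenase, with 0.83 and 0.78, a gene chosen after its values were seen. The 15 genes of growth hormone and STAT5 signalling had a median of -0.03, with 1 higher and 2 lower without adjustment.

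The lists of fatty acid synthesis and of cholesterol synthesis had pooled medians below 0, with no gene passing. Of 20 genes of fatty acid synthesis, 13 were below 0, 6 lower and none higher without adjustment, and the median was -0.17, -0.12 with genistein and -0.17 with daidzein. Srebf1, the master regulator of lipogenesis, was at 4.58 to 5.73 in controls, 3.68 to 5.26 with genistein and 3.83 to 5.28 with daidzein. Its difference was nearly equal in the diets, -0.65 and -0.62, but the arrays overlapped (pooled limma adjusted p = 0.460). Elovl5, a fatty acid elongase, was lower than every control in 9 of 10 isoflavone arrays, by -0.22 with genistein and -0.24 with daidzein. Acly (-0.65), Fasn (-0.61), Acaca (-0.14), Me1 (0.05) and Scd (0.01), enzymes from citrate cleavage to desaturation, had adjusted p of 0.473 to 0.979 (limma). Another probe set of Me1, of lower level, differed by -0.39, -0.82 with genistein and 0.04 with daidzein (pooled limma adjusted p = 0.594). Of 20 genes of cholesterol synthesis, 18 were below 0, 4 lower and none higher without adjustment, and the median was -0.17, -0.29 with genistein and -0.10 with daidzein. Insig1, a sterol sensor, had a pooled difference of -1.17 ± 0.49 (SE, limma adjusted p = 0.449), with controls at 5.29 to 6.93 and isoflavone arrays at 3.76 to 6.82.

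Targets of PPAR alpha, the nuclear receptor of fatty acid oxidation, had a pooled median above 0, while the arrays of the diets overlapped. Of 29 measured, none passed, 8 were higher and 2 lower without adjustment, 21 were above 0, and the median was 0.12, 0.09 with each diet. Array medians were -0.06 to 0.12 in controls, -0.08 to 0.24 with genistein and 0.02 to 0.22 with daidzein. Ehhadh, the peroxisomal bifunctional enzyme, was at 3.90 to 4.54 in controls and 4.53 to 4.98 in isoflavone arrays, of which 8 exceeded every control (pooled difference 0.43 ± 0.10 SE, limma adjusted p = 0.212). Cyp4a1, a fatty acid hydroxylase, differed by 0.46 with genistein and 0.47 with daidzein, with an interval between them from -0.44 to 0.43. Cpt1a, the carnitine transferase of mitochondrial fatty acid uptake, differed by 0.47 and 0.24. Acadm, a mitochondrial acyl-CoA dehydrogenase, went the other way, at 5.86 to 6.08 in controls and below that range in 9 of 10 isoflavone arrays (pooled difference -0.25). The 19 genes of mitochondrial fatty acid oxidation and ketogenesis had a median of 0.00, with 1 higher and 2 lower without adjustment. The 33 genes of electron transport and ATP synthase had a median of -0.09, with 27 below 0, 5 lower and none higher without adjustment, -0.04 with genistein and -0.10 with daidzein.

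The remaining lists had medians from -0.09 to 0.08, and none of their members passed. Bile acid synthesis and transport (22 genes) had a median of 0.06. Of its genes 6 were higher and 1 lower without adjustment, against 4.96% and 5.39% of all genes. Cyp7a1, the rate-limiting enzyme, had a difference of -0.09 ± 0.49 (SE, limma adjusted p = 0.975). Triacylglycerol synthesis and lipid droplets (23 genes) had a median of 0.08, apolipoproteins and lipoprotein handling (23 genes) -0.02, and endoplasmic reticulum chaperones (24 genes) 0.02. Gluconeogenesis and glycolysis (21 genes) had a median of -0.02, amino acid catabolism and the urea cycle (26 genes) 0.03, and sulfur amino acids (17 genes) -0.09. The circadian clock (16 genes) had a median of 0.01, acute phase, complement and coagulation (23 genes) 0.00, the cell cycle (20 genes) -0.02 and estrogen-responsive liver genes (7 genes) 0.02. In these 10 lists from triacylglycerol synthesis onward, between 0 and 3 members were higher and between 0 and 2 lower without adjustment. The gene of the estrogen receptor, Esr1, lay below the level required for testing.

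Markers of liver cell types were compared as the summed level of each list. The 9 measured hepatocyte markers, of 10 listed, summed to 11.08 to 11.13 in controls, 11.08 to 11.13 with genistein and 11.06 to 11.10 with daidzein. Of 10 listed markers of stellate cells and fibroblasts, 9 were measured. They summed to 6.01 to 6.13 in controls, 6.02 to 6.14 with genistein and 5.70 to 5.96 with daidzein. On this sum all daidzein arrays lay below the rest. The array medians of these markers, set against the control mean, overlapped, at -0.246 to -0.075 with daidzein and -0.094 to 0.035 in controls. Of these 9 markers 5 lay below 0 and 4 above it in the pooled difference, from -0.61 to 0.17 (Des), and the list median was 0.02 with genistein and -0.25 with daidzein. Dcn, the lowest of them and the gene of the proteoglycan decorin, had a pooled difference of -0.61 ± 0.19 (SE, limma adjusted p = 0.320). Sums of the 8 macrophage markers measured overlapped between the diets (6.38 to 6.67 in controls, 6.04 to 6.78 in isoflavone arrays), and so did those of endothelial, bile duct, blood and immune cells. Among markers of adipocytes and pancreas, 4 of 9 were measured, all of pancreas: Cela1, Cpa1, Prss1 and Ins2. Their sum was 3.26 to 3.68 in controls, 2.92 to 3.07 with genistein and 3.10 to 8.29 with daidzein, the highest in daidzein 5. Prss1 (7.59) and Cpa1 (5.91) were high in that array. Their control means (-0.44 and -0.33) and genistein means (-0.50 and -0.49) lay below the level required for testing. All genistein arrays lay below the controls on that sum, which in these arrays was mostly Cela1. Cela1 was at 2.82 to 3.33 in controls and 2.32 to 2.57 with genistein, and the other members were at 0.47 or lower there. The sum thus does not describe a cell type. The part of these cell types in the results was not tested.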

How the data were processed

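Liver total RNA of 15 rats was hybridised to a 1-channel Affymetrix rat array with biotin labelling by the 1-cycle kit, per the labels' protocols. The authors deposited 1 table of 31099 probe sets, whose values are scores, a standardized log signal per array. The unit was inferred from the values: after exponentiation, 584 of 584 gaps between values that recur often came out as whole steps of a linear signal, within 0.02 of a step, and the unit differs from the log2 signal that the design had assumed. Background correction, probe summary and scaling are not given in the sources used here.

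Scores were multiplied by the mean scale of 2.60 log2 units per deposited unit (2.54 to 2.79 by array) and quantile normalized. The 57 controls were dropped, and probe sets under the 40th percentile of mean level were not tested. A model of 3 diet means was fitted to all 15 arrays (limma 3.58.1, R 4.3.3, lmFit and eBayes, 12 residual and 2.58 prior degrees of freedom), with Benjamini-Hochberg adjustment over 18625 probe sets and a threshold of 0.05. A p-value of this fit is called limma p, SE and 95% intervals come from it, and SD is that of 5 arrays. The fitting steps were tested on simulated data. Of 31042 probe sets, 1 symbol was given for 20826, several for 436 and none for 9780, and 20758 matched the current rat gene table. Missing values numbered 260, in 97 probe sets. A gene was represented by its probe set with the highest mean level.

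The comparison, the lists and the members were chosen with earlier results of these data known. The text names up to 15 rises and 15 falls among called genes with both diets on the same side of the control, in each list up to 4 genes by lowest p, called genes whose diets differ, and preset genes. Others are said to be chosen after their values were seen. Gsta2, Gsta5, Cyp2b1 and some other preset genes are not analysed here. The numbers in the titles differ from those in the descriptions for 9 arrays, and that of genistein 3 carries an unexplained "-re". Title numbers were used. The residuals of arrays of different diets with the same title number correlated above 0.1 in 1 of 15 pairs (r from -0.163 to 0.109). This check gave little sign of pairing by title number, and pairing by the description numbers was not tested. Alternatives were other normalizations, filters, scales and models, a replicate block, array weights and leaving out arrays.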

Additional observations from a re-analysis of the deposited data

Results flagged for a closer look

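Within the 5 arrays of a diet, 1 array stood apart from the others for 5 of 34 genes examined, by a gap over 0.71 of the range of the 5. Akr7a3 was at 4.05 in genistein 5, where the next array was at 3.40. Rgs6 was at 0.35 in daidzein 1 against 0.04 in the next. Sult2a6 was at 4.41 in genistein 4 against 5.91 in the next, and Cyp2c6v1 was at 7.69 in genistein 4 against 7.76. Cyp2a1 was at 4.99 in control 5 against 4.13. These were 5 of 102 groups examined in 34 genes, where chance gives about 1 in 20. Other genes of the text were not examined, so the count does not cover them. Among these, daidzein 5 stood apart for Nr1i3 (1.80 against 1.29 in the next) and Prss1 (7.59 against 0.22).

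Among 143 genes selected for naming, 4 differed between the diets (limma adjusted p under 0.05), so that the mean of both diets describes neither. Over all 18625 probe sets tested, 21 did (0.113%). Called genes whose diets differ were selected by rule, so the 4 are not a neutral count. Genistein minus daidzein was -2.21 for Akr7a3 (adjusted p = 1.52e-05) and -4.61 for Dhrs7l1 (adjusted p = 0.0252). It was -0.87 for Apon, an apolipoprotein (adjusted p = 3.47e-04), which had a change of -0.65 with genistein and 0.23 with daidzein. It was -1.47 for Csad, the decarboxylase of taurine synthesis (adjusted p = 0.00612), with -1.29 and 0.17.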

How the results depend on the processing

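None of the 3 genes called in the mean of both isoflavones changed direction over the alternatives, but the counts of called probe sets moved with the settings and with single arrays. For both isoflavones against control, 3 probe sets were called, and limma called 23 with a filter at the 60th percentile, 19 with trend and robust eBayes, 18 with array weights and 21 with 16 added to the intensities. It called 0 with 2 groups in place of 3 (1728 with unadjusted p under 0.05), 0 with the replicate block (1915) and 0 without both control 1 and daidzein 5 (1375). Leaving out 1 array gave 0 to 35 (35 without genistein 4, 14 without control 5). Genistein against control, with 60, gave 34 with median centring, 14 with no filter, 124 at the 60th percentile, 110 with trend and robust, 17 with the block, 140 with weights and 4 without both arrays, and 5 to 203 without 1 array. Daidzein against control, with 3, gave 7, 6 and 7 at the 60th percentile, with trend and robust and with weights, 1 without both arrays, and 2 to 8 without 1 array. Genistein against daidzein, with 21, gave 9, 3, 67, 53, 2, 74 and 35 with centring, no filter, the 60th percentile, trend and robust, the block, weights and 16 added, 4 without both arrays, and 3 to 136 without 1 array. The 56 probe sets with groups apart were 26 in values as deposited, 14 with median centring and 121 without both arrays, and 61 to 133 without 1 array, as fewer arrays separate more readily. Other causes were not tested. Of 3686 changes of named genes over the alternatives, 3638 kept their sign. Signal near background limits Gsta3, Dmxl2, Pcdh10, Col20a1, Rgs6 and the Sorl1 probe set.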
